A study of Homo sapiens with 12 samples.

Results

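The change in gene expression between the libraries labelled 30 h and 48 h was described in degron (++) cells irradiated with 4 Gy. By the study's account, degron (++) cells are cells of the human pancreatic cancer line PANC-1 that carry ZsGreen, a green fluorescent protein, fused to the degron of ornithine decarboxylase. They were enriched by repeated sorting for the strongest ZsGreen signal. The degron marks the protein for the proteasome, so ZsGreen accumulates in cells with low proteasome activity, and the study used these cells as a model of cancer stem-like cells. The members were taken from the labels: the 2 libraries at 30 h and the 2 libraries at 48 h, both after 4 Gy, which are 4 of the 12 libraries of the series. Of the others, 2 are degron (++) cells sampled at 48 h without irradiation (0 Gy), and 6 are degron (−) cells in the same 3 conditions, 2 each. The study describes degron (−) cells as reporter-carrying cells of the same line with little ZsGreen signal, and their libraries are labelled ZsGreen− in the titles but d+ in the descriptions. All groups carry the reporter. No unirradiated group at 30 h was analysed here, so a change with time after irradiation cannot be told apart from a change with time alone. The starting point of the hours is not given in the labels, so 30 h or 48 h after 4 Gy stands here for the labelled hours and dose. Nor is it said that the 2 libraries of a group came from separate cultures, so p-values measure only the spread between these libraries.

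Several gene programs followed here are well known responses of tumor cells to stress and nutrients. ATF4 is a transcription factor that is translated when the kinases of the integrated stress response are active, as in amino acid shortage, and it switches on genes for amino acid synthesis, amino acid transport and the charging of tRNA. HIF-1 is stabilized at low oxygen and switches on glycolysis and angiogenesis genes. SREBP proteins are released from the endoplasmic reticulum when sterols are low and switch on genes for cholesterol and fatty acid synthesis.

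Expression is given as FPKM, the fragments of a gene scaled to its length and to the mapped reads of the library. How many reads stand behind a value is unknown, since these units keep no counts. Steps between low values put the depth of the 4 libraries from 1 to 1.163 times the shallowest of them. FPKM summed to between 872142 and 916877 in a library, of which a single gene, MIR622, held 28.6% to 30.0%, and genes of small RNAs together held 39.1% to 41.8%. The replicate libraries of both groups differed by a median of 0.0733 and 0.0811 on the log2 scale. The 7 epithelial markers were all measured, and their summed level was 7801 and 8252 FPKM at 30 h and 7891 and 8412 FPKM at 48 h. Endothelial, acinar and endocrine markers summed to at most 0.58 FPKM in each of the 4 libraries, and 8 leukocyte markers to between 4.52 and 6.42 FPKM. Of 8 fibroblast markers, 7 did not reach the filter described next and 3 were listed at 0 in all 4 libraries. The sum of the fibroblast markers, which was almost all LUM, was 14.5 and 15.2 FPKM at 30 h and 22.9 and 23.5 FPKM at 48 h.

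Some measurements went against the label of the line. PANC-1 is known to have lost both copies of CDKN2A, the gene of the cell cycle inhibitor p16, yet CDKN2A was listed at 103 and 100.4 FPKM at 30 h and at 105 and 112 FPKM at 48 h. In degron (−) cells after 4 Gy the gene was listed at 12.4 and 11.04 FPKM at 30 h and at 21.1 and 19.1 FPKM at 48 h. PANC-1 is also known as a line rich in vimentin, and VIM had 2709 and 2711 FPKM at 30 h and 2529 and 2376 FPKM at 48 h in degron (−) cells, against 19.2 and 17.8 FPKM at 30 h and 14.6 and 13.2 FPKM at 48 h in degron (++) cells. The origin of these levels was not tested, and the names degron (++) and degron (−) are used here as the labels of the libraries.

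A total of 11641 genes had FPKM of at least 1 in at least 2 of the 4 libraries and were tested on the log2(FPKM + 1) scale, on which fold changes of low genes are understated. Of these, 167 (1.43%) had a Benjamini-Hochberg adjusted p under 0.05 in limma. They comprised 93 genes (0.799%) that rose from 30 h to 48 h and 74 (0.636%) that fell. For all 167 genes both libraries of one time point lay above both libraries of the other, an order that 22.0% of all genes tested showed upwards and 24.3% downwards. The genes were chosen by the same values, so this order largely follows from the choice and adds no support, here or for single genes below. Their median log2 fold change, 48 h minus 30 h, was 0.40 for the rises and −0.30 for the falls, and 23 of the 167 genes changed by over 1.5-fold, 19 of them upwards. Genes that fell were more abundant, with a median of 48.3 FPKM, than genes that rose, with a median of 17.5 FPKM, while the median of all genes tested was 13.01 FPKM. In bulk samples, fewer cells that use a gene and less of its RNA per cell cannot be told apart.

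The spread behind these tests was estimated over all 12 libraries. With the 4 libraries alone 35 genes passed the threshold, and without 1 of the 4 libraries 21 to 42 genes did. Of the 49 genes past the threshold that were chosen for naming, 9 passed whichever of the 4 libraries was left out, namely PSAT1, ASNS, STC2, GARS, LDHA, P4HA1, EFHD2, TM7SF2 and RAB26. A further 22 passed in none of these 4 fits, among them FXYD4, SREBF1, PADI1, SPSB2, LUM, SEMA3B, MUC1, C8orf4, FILIP1L, PHGDH, LPCAT1, PTX3, GPT2, GRB10, VEGFA, VIM, JUP, KIF4A, PARP1, RMRP and SCARNA7. Rescaling of each library to one sum left 29 rises and 23 falls, and the same rescaling after small RNA genes were taken out gave 181 rises and 75 falls, so that 70.7% of the genes past the threshold were rises, against 55.7%.

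**Figure D1:**
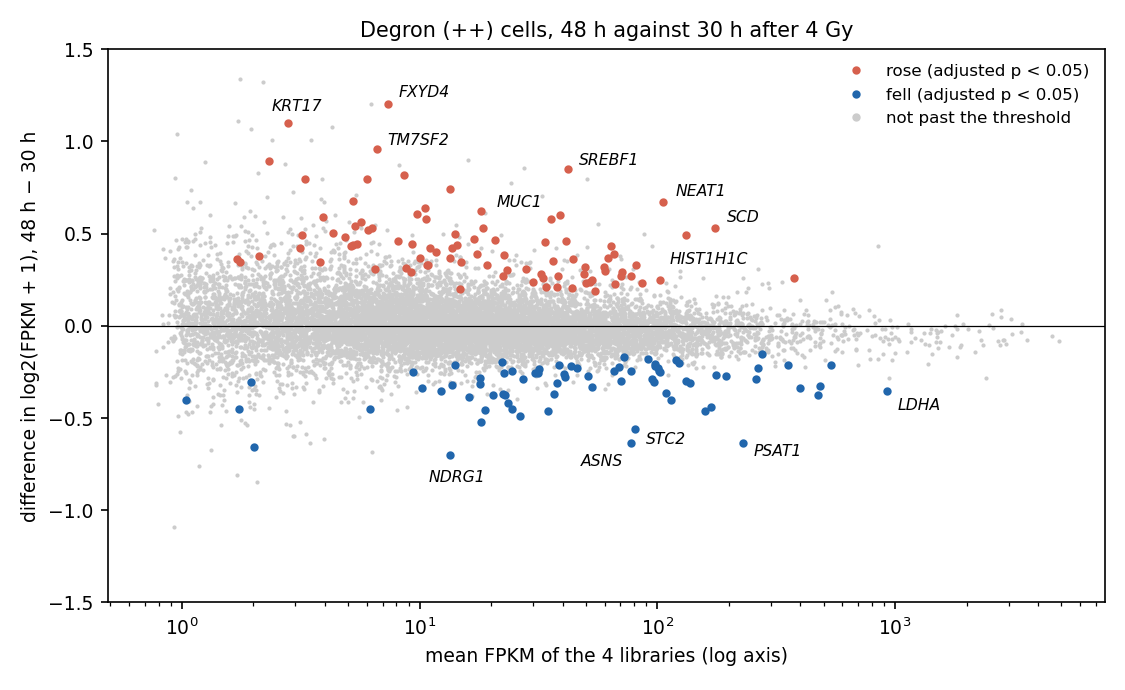
Difference in log2(FPKM + 1) between 48 h and 30 h (y axis) against the mean FPKM of the 4 libraries (x axis, log scale) for each gene tested in degron (++) cells after 4 Gy. The 142 small RNA genes are left out and 3 other genes lie beyond the axis, which ends at 1.5. Genes that fell (blue) reach to higher FPKM than most genes that rose (red), and NDRG1, PSAT1 and ASNS are the lowest labelled points.

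Genes of the amino acid response had the lowest median of the gene lists. All 18 genes of a list of ATF4 targets and amino acid response genes were tested and all 18 had lower means at 48 h, with a median log2 fold change of −0.35, while the median of all genes tested was −0.0044. Of the 18 genes, 10 fell past the threshold, as 0.636% of all genes did, and none rose. In 17 of them both 48 h libraries lay below both 30 h libraries, an order that 24.3% of all genes showed. The number past the threshold was 4 to 13 under other scalings, filters and fits, and the median was −0.38 to −0.34.

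Among the 10 genes of the list past the threshold, the lowest log2 fold changes were those of PSAT1 and ASNS, enzymes that make serine and asparagine. The standard error (SE) of each log2 fold change is given with its adjusted p. PSAT1, the aminotransferase of serine synthesis, had 274 and 286 FPKM at 30 h and 179 and 180.2 FPKM at 48 h. Both libraries at 48 h lay far below both at 30 h, and the log2 fold change was −0.64 (SE 0.0558, adjusted p = 0.00189). ASNS, asparagine synthetase, had 91.2 and 98.3 FPKM at 30 h and 60.5 and 60.6 FPKM at 48 h, with a log2 fold change of −0.64 (SE 0.0553, adjusted p = 0.00189). Its unirradiated libraries at 48 h lay between both irradiated groups, at 71.2 and 78.96 FPKM. At 48 h ASNS was lower with 4 Gy than with 0 Gy, by a log2 fold change of −0.30 (adjusted p = 0.0309), a comparison that uses the same 48 h libraries. PSAT1 showed the same order, with 216 and 211 FPKM at 0 Gy, and its difference between doses did not pass the threshold (log2 fold change −0.25, adjusted p = 0.0583).

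The other enzymes of the serine pathway moved the same way. PHGDH, which starts the pathway, had 184 ± 5.06 FPKM at 30 h and 133 ± 5.31 FPKM at 48 h (SD, n = 2 each) and fell with a log2 fold change of −0.46 (SE 0.0630, adjusted p = 0.0142). PSPH, which ends it, fell from 25.95 to 19.7 FPKM (adjusted p = 0.0336). MTHFD2 and SHMT2, mitochondrial enzymes that pass the carbon of serine to folate, fell with log2 fold changes of −0.37 (adjusted p = 0.025) and −0.27 (adjusted p = 0.0282). PSPH, MTHFD2 and SHMT2, as well as the transporters, CHAC1, TRIB3, DDIT4 and ATF4 below, were named after their values were seen.

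PCK2, the mitochondrial phosphoenolpyruvate carboxykinase, had 29.4 and 32.6 FPKM at 30 h and 20.2 and 23.5 FPKM at 48 h. The groups did not overlap, and the log2 fold change was −0.49 (SE 0.0812, adjusted p = 0.0267). STC2, a secreted glycoprotein induced in stressed cells, had 97.7 and 95.1 FPKM at 30 h and 65.6 and 64.5 FPKM at 48 h. Its libraries agreed closely within each time point and the log2 fold change was −0.56 (SE 0.0402, adjusted p = 0.00139). Unlike ASNS and PSAT1, STC2 had its lowest values in the unirradiated libraries at 48 h, at 59.1 and 60.1 FPKM. GPT2, the mitochondrial alanine aminotransferase and no member of the list, fell from 28.6 to 20.6 FPKM, a log2 fold change of −0.45 (SE 0.0755, adjusted p = 0.0267).

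SLC7A5 and SLC3A2 encode the subunits of LAT1, which imports large neutral amino acids. SLC7A5 had 544 and 531 FPKM at 30 h and 406 and 422 FPKM at 48 h and SLC3A2 had 448 and 444 FPKM at 30 h and 346 and 362 FPKM at 48 h. Both genes were lower in both 48 h libraries, with log2 fold changes of −0.38 (SE 0.0426, adjusted p = 0.00693) and −0.33 (SE 0.0412, adjusted p = 0.00879). Of 18 tested genes of the SLC1, SLC3, SLC7 and SLC38 families of amino acid transporters, a group chosen after values were seen, 3 fell, against 0.636% of all genes. None rose, and the third to fall was SLC1A5, the glutamine carrier ASCT2.

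Not every gene of the list passed the threshold. The mRNA of ATF4 itself had 379 and 378 FPKM at 30 h and 359.6 and 391 FPKM at 48 h, so the groups overlapped and the log2 fold change was −0.014 (SE 0.0519, adjusted p = 0.927). ATF4 is known to be controlled in its translation, which these data do not measure. TRIB3 and DDIT4, stress genes that ATF4 switches on, had log2 fold changes of −0.12 (adjusted p = 0.514) and −0.08 (adjusted p = 0.675). CHAC1, which degrades glutathione, had 8.34 and 7.65 FPKM at 30 h and 3.73 and 5.64 FPKM at 48 h, and its log2 fold change of −0.68 missed the threshold (adjusted p = 0.0527).

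**Figure D2:**
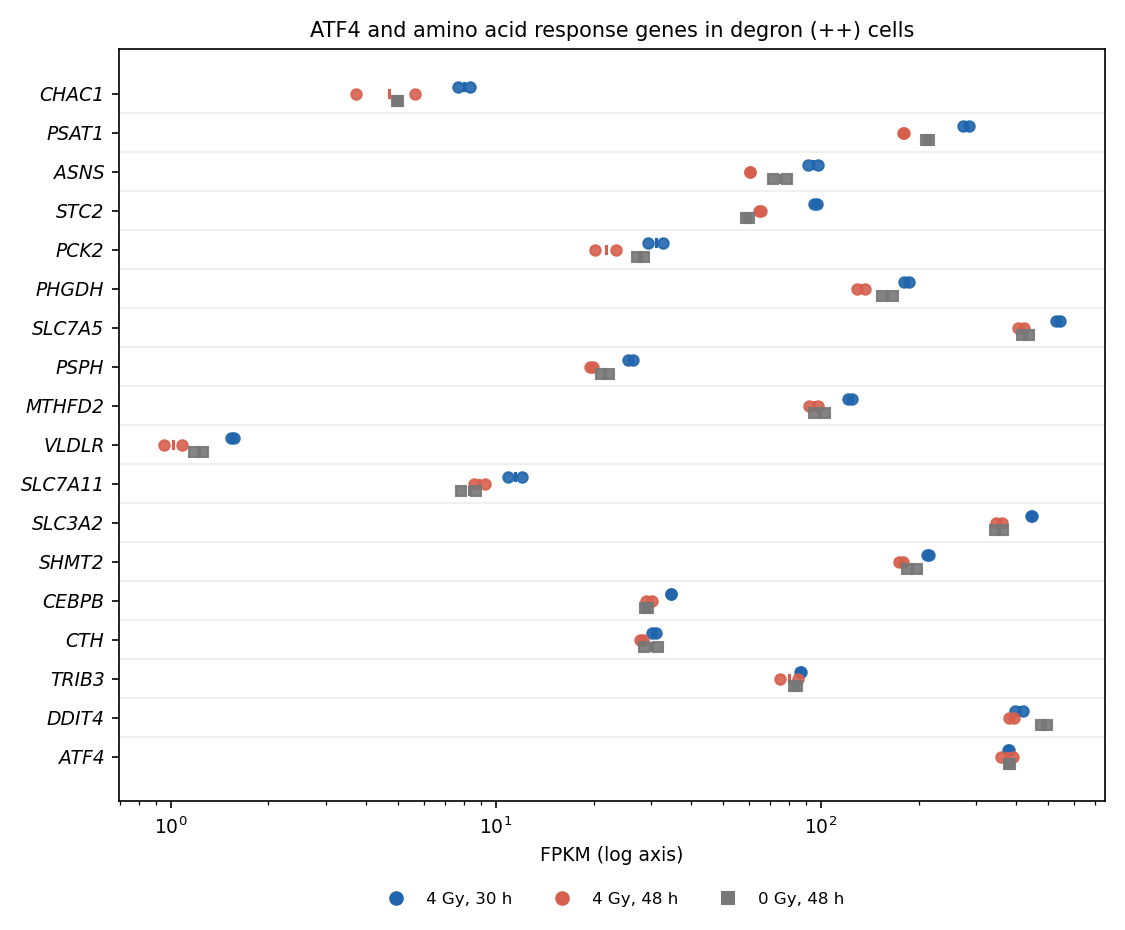
FPKM (x axis, log scale) of the 18 tested ATF4 and amino acid response genes in the degron (++) libraries; each point is a library and each short bar the mean of 2. The 48 h libraries after 4 Gy (red) lie left of the 30 h libraries (blue) for 17 genes, ATF4 being the exception, and grey squares show the unirradiated libraries at 48 h.

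Genes for the charging of tRNA moved with this list. Aminoacyl-tRNA synthetases join an amino acid to its tRNA, and the cytosolic enzymes were looked at as a family after the values were seen. Of 18 synthetase genes tested, 7 fell (AARS, CARS, EPRS, GARS, IARS, TARS and YARS), against 0.636% of all genes, none rose, and 16 had lower means at 48 h, with a median log2 fold change of −0.20. GARS, the glycyl-tRNA synthetase, had 191 and 197 FPKM at 30 h and 144 and 142 FPKM at 48 h and the largest fall of the family, −0.44 (SE 0.0344, adjusted p = 0.00139). The other 6 fell by less, from a log2 fold change of −0.30 for EPRS to −0.20 for IARS.

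The promoters of some of these genes are shown because they share a known element. ATF4 binds, with C/EBP partners, a composite element written TGATGNAA, which was searched on both strands in the RefSeq promoters of GRCh38.p14, each 250 bases before to 50 bases after the start of the gene. A promoter was found for 58 of the 74 genes that fell and 65 of the 93 that rose. The element was present in 7 of the 58 (12.1%), in none of the 65, in 1.61% of 9215 promoters of tested genes and in 3.67% of all 27305 promoters. The 7 genes were AARS, ASNS, CARS, HK1, IARS, SLC3A2 and TARS. Most promoters of the list of ATF4 targets and amino acid response genes lacked the element. It was present in 3 of 15, those of ASNS, SLC3A2 and CHAC1, of which CHAC1 did not pass the threshold. Among synthetases with a promoter in the table, EPRS left aside, the element was present in 6 of 10, of which MARS and NARS did not pass the threshold. EPRS, which fell, has a promoter in the table without the element. The motif was chosen after the values were seen, a match is a description and not a binding site, and no test was made. The stretches around the matches are given 5′ to 3′ in the direction of the gene, with the element, or its reverse complement, in capitals.
ASNS: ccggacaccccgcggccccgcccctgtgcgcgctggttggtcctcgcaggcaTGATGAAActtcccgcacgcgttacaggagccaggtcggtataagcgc
SLC3A2: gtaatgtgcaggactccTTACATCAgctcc
AARS: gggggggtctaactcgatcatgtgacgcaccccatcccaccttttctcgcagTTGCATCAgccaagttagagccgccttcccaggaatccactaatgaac
CARS: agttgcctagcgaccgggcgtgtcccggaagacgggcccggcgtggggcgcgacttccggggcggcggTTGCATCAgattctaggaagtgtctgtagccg
IARS: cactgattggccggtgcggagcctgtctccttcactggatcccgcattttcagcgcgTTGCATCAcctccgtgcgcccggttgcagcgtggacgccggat
TARS: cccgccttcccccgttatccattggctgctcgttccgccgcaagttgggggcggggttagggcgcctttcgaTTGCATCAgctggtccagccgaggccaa

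The ASNS stretch lies at chr7:97872429-97872528 (minus strand) and holds the element as TGATGAAA, 68 bases before the start. The SLC3A2 stretch lies at chr11:62881719-62881748 (plus strand), with its match 37 bases after the start. The 4 synthetases share the same 8 letters, TTGCATCA, at chr16:70289646-70289745 (minus strand) for AARS, chr11:3057394-3057493 (minus strand) for CARS, chr9:92293668-92293767 (minus strand) for IARS and chr5:33440895-33440994 (plus strand) for TARS. The match begins 187, 2 and 13 bases before the start in AARS, CARS and IARS, and 2 bases after it in TARS.

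Some glycolysis and hypoxia genes fell. Of 26 tested genes of the list, 5 fell (NDRG1, P4HA1, LDHA, VEGFA and PGK1), against 0.636% of all genes, and none rose. Of the 26, 22 had lower and 4 higher means at 48 h, with a median log2 fold change of −0.17. NDRG1, a stress gene that hypoxia induces, had 17.9 and 15.8 FPKM at 30 h and 10.01 and 9.92 FPKM at 48 h. This was the largest fall among the genes of at least 5 FPKM, with a log2 fold change of −0.70 (SE 0.0805, adjusted p = 0.00693). The unirradiated libraries at 48 h were at 9.57 and 8.52 FPKM, next to the irradiated ones. LDHA, lactate dehydrogenase A, had 1036 and 1041 FPKM at 30 h and 813 and 811 FPKM at 48 h, with a log2 fold change of −0.35 (SE 0.0322, adjusted p = 0.00214). P4HA1, a subunit of the prolyl hydroxylase that collagen needs, fell from 27.1 to 20.1 FPKM (log2 fold change −0.42, SE 0.0412, adjusted p = 0.00314). VEGFA, the main growth factor of blood vessels, fell from 15.3 to 12.1 FPKM (log2 fold change −0.32, SE 0.0558, adjusted p = 0.0314). PGK1, a glycolytic kinase named after its values were seen, fell by a log2 fold change of −0.21 (adjusted p = 0.0334). With the 4 libraries alone 1 gene of the list passed the threshold.

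The core of the hypoxia response element, ACGTG, is short and common. Searched on both strands, it was present in 10 of 22 promoters of the list (45.5%), 27.3% of those of tested genes and 21.6% of all. It was present in 31.0% of promoters of genes that fell and 15.4% of those that rose. The LDHA promoter is shown as the most abundant gene of those that fell. The stretch lies at chr11:18394358-18394534 (plus strand) and holds 5 matches in capitals, of which CACGTG reads the same on both strands and counts as 2 overlapping ones. The matches begin 185, 184, 87, 86 and 73 bases before the start.
LDHA: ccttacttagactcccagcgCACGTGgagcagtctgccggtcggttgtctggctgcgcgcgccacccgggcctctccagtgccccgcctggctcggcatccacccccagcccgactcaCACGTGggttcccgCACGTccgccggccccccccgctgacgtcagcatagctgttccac

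Some genes of sterol and fatty acid synthesis rose. All 30 genes of the list were tested, of which 4 rose, among them SREBF1, SCD and INSIG1, against 0.799% of all genes, and none fell. Of the 30, 27 had higher and 3 lower means at 48 h, with a median log2 fold change of 0.15. SREBF1, the gene of SREBP-1, had 31.2 and 28.4 FPKM at 30 h and 49.8 and 59.6 FPKM at 48 h. Both libraries at 48 h lay above both at 30 h, with a log2 fold change of 0.85 (SE 0.136, adjusted p = 0.0243), and the unirradiated libraries at 48 h were higher still, at 68.9 and 75.7 FPKM. SCD, the desaturase that makes oleic acid, had 146 and 139 FPKM at 30 h and 193 and 221 FPKM at 48 h, with a log2 fold change of 0.53 (SE 0.0736, adjusted p = 0.015). INSIG1, which holds SREBP in the endoplasmic reticulum, rose from 28.4 to 39.2 FPKM (log2 fold change 0.45, SE 0.0873, adjusted p = 0.042). TM7SF2, a sterol reductase outside the list, had 4.48 and 3.91 FPKM at 30 h and 8.86 and 9.32 FPKM at 48 h, a log2 fold change of 0.96 (SE 0.0990, adjusted p = 0.00408). No gene of the list passed the threshold with the 4 libraries alone, and its median stayed between 0.13 and 0.20 under the other settings. A sterol regulatory element, written TCACNCCAC and searched on both strands, was present in 1 of 22 promoters of the list, SREBF2, and in 1.13% of those of tested genes.

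**Figure D3:**
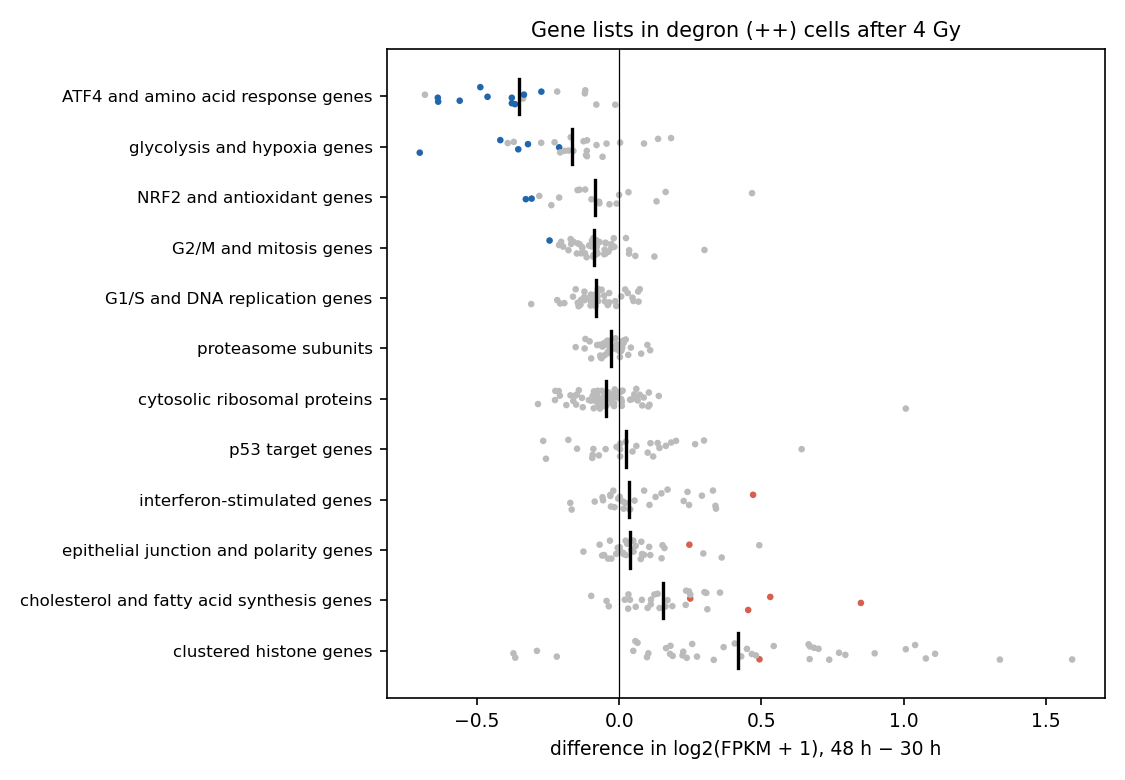
Difference in log2(FPKM + 1) between 48 h and 30 h (x axis) for the tested members of 12 gene lists in degron (++) cells after 4 Gy. Each point is a gene, red where it rose and blue where it fell past the threshold, and the vertical bars are medians, which run from −0.35 for the ATF4 list to 0.42 for clustered histone genes.

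The largest rises among genes of at least 5 FPKM included membrane, secreted and signalling proteins. FXYD4, a regulator of the sodium pump, had 4.29 and 3.75 FPKM at 30 h and 12.4 and 8.93 FPKM at 48 h, a log2 fold change of 1.205 (SE 0.234, adjusted p = 0.0428). Its libraries at 48 h were spread widely, and it passed the threshold under 2 of 10 alternative settings. RAB26, a small GTPase of secretory vesicles, had 6.47 and 5.53 FPKM at 30 h and 11.1 and 11.5 FPKM at 48 h, a log2 fold change of 0.82 (SE 0.0848, adjusted p = 0.00408). RARRES1, a retinoid-responsive gene, rose from 4.099 to 7.91 FPKM and was higher still at 0 Gy, at 14.4 and 12.9 FPKM. MUC1, the epithelial mucin, had 29.8 and 27.1 FPKM at 30 h and 42.5 and 43.4 FPKM at 48 h and a log2 fold change of 0.58 (SE 0.0953, adjusted p = 0.0257). LUM, a proteoglycan of the matrix and the fibroblast marker named above, had 14.2 and 13.8 FPKM at 30 h and 21.8 and 22.4 FPKM at 48 h and a log2 fold change of 0.62 (SE 0.109, adjusted p = 0.0314). SEMA3B, a secreted semaphorin, and SPSB2, an adaptor of a ubiquitin ligase, rose with log2 fold changes of 0.61 and 0.64. PADI1, which turns arginine to citrulline in proteins, and FILIP1L rose with 0.68 and 0.56. SAT1, which starts the breakdown of polyamines, rose from 30.8 to 47.2 FPKM (log2 fold change 0.60, SE 0.0836, adjusted p = 0.0151). NEAT1, the long noncoding RNA that scaffolds paraspeckles, had 85.5 and 77.2 FPKM at 30 h and 137 and 123 FPKM at 48 h, all 48 h libraries above all 30 h libraries, with a log2 fold change of 0.67 (SE 0.0769, adjusted p = 0.00693).

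Some rises had unirradiated libraries that lay at the 30 h level. IL32, a cytokine gene, had 11.2 and 8.55 FPKM at 30 h and 15.3 and 18.9 FPKM at 48 h, against 8.75 and 8.94 FPKM at 0 Gy and 48 h, and C8orf4 had 8.502 and 8.14 FPKM at 30 h and 12.7 and 13.1 FPKM at 48 h, against 8.52 and 7.495 FPKM. The log2 fold change between 48 h and 30 h was 0.74 (SE 0.132, adjusted p = 0.0334) for IL32 and 0.58 (SE 0.101, adjusted p = 0.0314) for C8orf4. Between 4 Gy and 0 Gy at 48 h, which 2.39% of the same genes passed (1.92% higher and 0.472% lower with 4 Gy), it was 0.87 (adjusted p = 0.0182) and 0.63 (adjusted p = 0.0202). IFIT2, an interferon-induced gene, showed the same order, with 14.9 and 13.2 FPKM at 30 h and 20.03 and 19.7 FPKM at 48 h and 13.1 and 12.9 FPKM at 0 Gy. It was the single gene of 31 interferon-stimulated genes tested that rose from 30 h to 48 h (log2 fold change 0.47, SE 0.0723, adjusted p = 0.0207), against 0.799% of all genes.

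**Figure D4:**
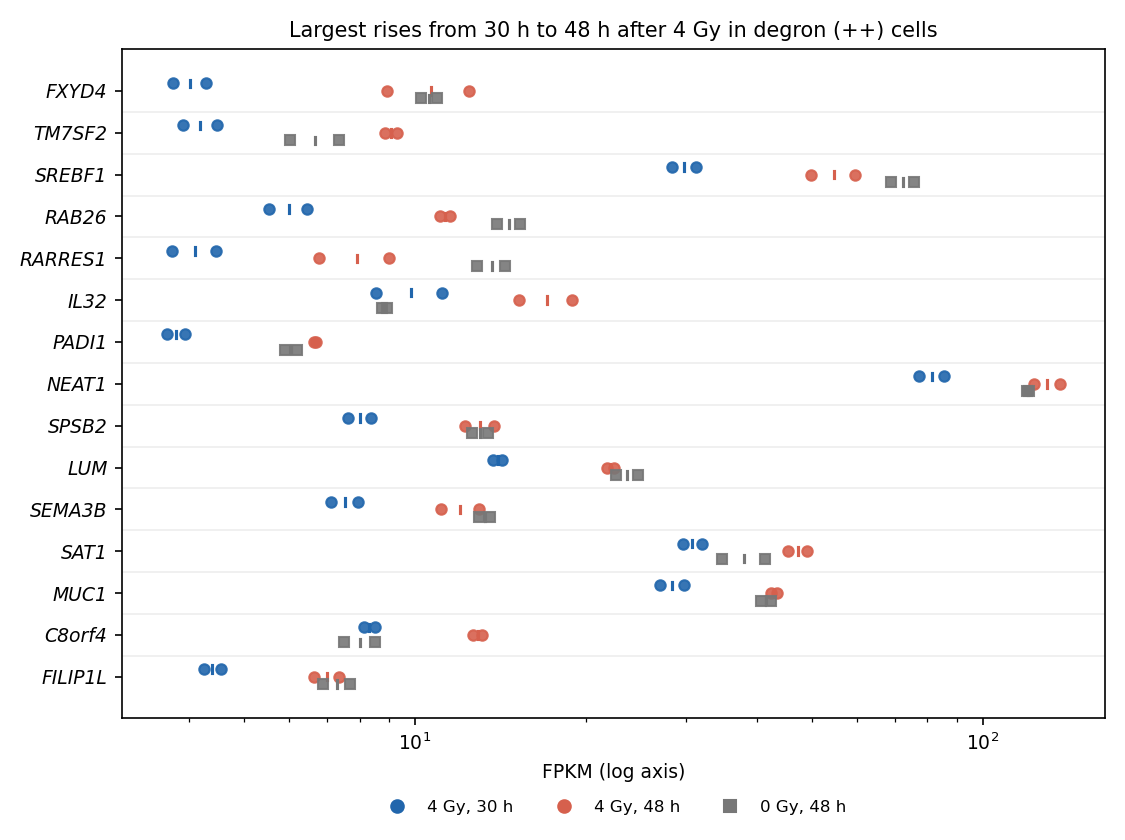
FPKM (x axis, log scale) of the 15 largest rises among genes of at least 5 FPKM in the degron (++) libraries; each point is a library and each short bar the mean of 2. For every gene the 48 h libraries after 4 Gy (red) lie right of the 30 h libraries (blue), while the unirradiated libraries at 48 h (grey squares) lie near the 48 h level for FXYD4, SPSB2 and LUM and near the 30 h level for IL32 and C8orf4.

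Clustered histone genes had the highest median of the 12 lists plotted, 0.42 over 42 tested genes. Of these, 38 had higher means at 48 h and 1 rose past the threshold, as 0.799% of all genes did. The gene past the threshold was HIST1H1C, a linker histone, with 114 and 106 FPKM at 30 h and 156 and 153 FPKM at 48 h. It had a log2 fold change of 0.49 (SE 0.0663, adjusted p = 0.0135). The unirradiated libraries at 48 h were below both, at 96.4 and 95.2 FPKM. Over all 73 genes of the list the summed level was 744 and 750.1 FPKM at 30 h, 885 and 902 FPKM at 48 h, and 558 and 576 FPKM at 0 Gy. Most histone transcripts carry no poly(A) tail and the library kit of the labels selects for one, and near-identical histone genes share reads, so the single values are uncertain.

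Few genes of the cell cycle and DNA damage lists passed the threshold, which 0.636% of all genes passed downwards and 0.799% upwards. At an unadjusted p under 0.05 in limma were 1954 of all 11641 genes, 995 of them higher and 959 lower at 48 h. Of 48 tested G2/M and mitosis genes 1 fell, KIF4A, a chromosome-bound kinesin (log2 fold change −0.24, SE 0.0406, adjusted p = 0.0267), and 42 had lower means at 48 h with a median of −0.087. None of 43 G1/S and replication genes passed the threshold, by limma, 14 were lower and none higher at 48 h at an unadjusted p under 0.05, and the median was −0.081. Of 29 genes of DNA damage signalling and repair 1 fell, PARP1, a sensor of strand breaks (−0.18, adjusted p = 0.0467). None of 27 p53 target genes passed, with 7 at an unadjusted p under 0.05, of which 4 had higher means at 48 h. PLK2 and BAX, its most abundant members, had log2 fold changes of 0.18 (adjusted p = 0.128) and 0.14 (adjusted p = 0.54).

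The reporter reads proteasome activity, so proteasome genes were looked at next. None of 41 proteasome subunits passed, 3 were at an unadjusted p under 0.05, and the median log2 fold change was −0.030. As given above, 1954 of all 11641 genes were at an unadjusted p under 0.05. PSMA7 had 719.7 and 680.3 FPKM at 30 h and 663 and 697 FPKM at 48 h, and the time points overlapped. None passed among 77 cytosolic ribosomal proteins, 84 subunits of oxidative phosphorylation, 17 unfolded protein response genes and 13 heat shock genes. At an unadjusted p under 0.05 in limma were 14, 11, 4 and 7 of these genes, of which 12, 10, 4 and 6 were lower at 48 h. Of the 13 heat shock genes 10 had lower means at 48 h. The most abundant, HSPA8 and HSP90AA1, had log2 fold changes of −0.17 (SE 0.0397, adjusted p = 0.0747) and −0.18 (SE 0.0495, adjusted p = 0.125). HSPA5, the chaperone BiP, had a log2 fold change of −0.066 (adjusted p = 0.319). None passed among 22 inflammatory, 15 immediate early, 22 YAP/TAZ, 11 TGF-beta and 14 BCL2 family genes, with 4, 5, 4, 4 and 2 genes at an unadjusted p under 0.05. A p that misses the threshold does not show that these genes were equal at both times.

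Of 18 tested antioxidant and NRF2 genes 2 fell. Over all genes tested 0.636% fell and 0.799% rose. FTH1, the heavy chain of ferritin, had 531 and 548 FPKM at 30 h and 418 and 441 FPKM at 48 h, with a log2 fold change of −0.33 (SE 0.0412, adjusted p = 0.00909), and NQO1, a quinone reductase, had 149.9 and 154 FPKM at 30 h and 125 and 120.1 FPKM at 48 h, with −0.31 (SE 0.0386, adjusted p = 0.00909). The time points did not overlap for either gene. VEGFA was also the single one of 21 tested genes of the senescent secretory list to fall, and MUC1 the single one of 4 tested mucins to rise.

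Single genes passed the threshold in the lists of stemness, mesenchymal, junction, keratin and laminin genes. Of all genes tested, 0.799% rose and 0.636% fell. CD44, the hyaluronan receptor, had 147 and 146 FPKM at 30 h and 119 and 119 FPKM at 48 h, and CD24, a mucin-like surface protein, had 53.4 and 52.3 FPKM at 30 h and 63.4 and 69.1 FPKM at 48 h. Both are used as stemness markers in pancreatic cancer. CD44 fell (log2 fold change −0.30, SE 0.0364, adjusted p = 0.00879) and CD24 rose (log2 fold change 0.32, SE 0.0465, adjusted p = 0.0154), with no overlap, and the other 7 of the 9 stemness markers tested did not pass. VIM, the intermediate filament of mesenchymal cells, was the single one of 7 mesenchymal genes to fall (log2 fold change −0.39, SE 0.0663, adjusted p = 0.0296). JUP, the plakoglobin of cell junctions, was the single one of 34 epithelial junction and polarity genes to rise (log2 fold change 0.25, SE 0.0469, adjusted p = 0.0393). Among 12 tested keratins KRT17 rose, from a low level, with 1.41 and 1.42 FPKM at 30 h and 3.82 and 4.55 FPKM at 48 h (log2 fold change 1.099, SE 0.145, adjusted p = 0.0122). LAMA5, a chain of laminin, rose among 19 laminin and integrin genes (log2 fold change 0.27, SE 0.0482, adjusted p = 0.0318). VIM and JUP each passed the threshold under 4 of 10 alternative settings, as did SEMA3B and PARP1, while FXYD4 passed under 2. None of 10 collagen genes and 6 matrix metalloproteinases passed, with 1 and 2 genes at an unadjusted p under 0.05.

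Further falls were of genes outside the lists. FAM20C, a kinase of secreted proteins, fell from 21.6 to 14.8 FPKM (log2 fold change −0.52, SE 0.0630, adjusted p = 0.00879), and LPCAT1, which remodels phospholipids, from 40.2 to 28.96 FPKM (log2 fold change −0.46, SE 0.0661, adjusted p = 0.0154). PTX3, a secreted pentraxin, had 21.9 and 21.9 FPKM at 30 h and 15.3 and 16.04 FPKM at 48 h (log2 fold change −0.46, SE 0.0823, adjusted p = 0.0336), with lower values still at 0 Gy, 11.9 and 12.9 FPKM. GRB10, an adaptor of the insulin receptor, and EFHD2, a calcium-binding protein, fell with log2 fold changes of −0.45 (adjusted p = 0.0336) and −0.40 (adjusted p = 0.00214).

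Of 142 small RNA genes tested 3 rose, against 0.799% of all genes. RMRP, the RNA of the RNase MRP complex, had 23.9 and 48.97 FPKM at 30 h and 241 and 157 FPKM at 48 h, and 23.3 and 20.3 FPKM at 0 Gy and 48 h. Its log2 fold change was 2.47 (SE 0.418, adjusted p = 0.0286), an SE larger than those of the genes above. SNORD89, a small nucleolar RNA, was listed at 0 in both 30 h libraries and at 50.2 and 46.97 FPKM at 48 h. SCARNA7, a small RNA of Cajal bodies, was listed at 0 at 30 h and at 1.43 and 1.34 FPKM at 48 h. A listed 0 can be a failed estimate, so no fold is given, and FPKM of such short genes are uncertain in libraries made from poly(A) RNA.

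The same comparison was made in degron (−) cells, to see which changes differed between the populations. There 970 of 12203 genes tested passed the threshold (7.95%), of which 797 (6.53%) rose and 173 (1.42%) fell. Of the 74 genes that fell in degron (++) cells, all were tested in degron (−) cells, 1 fell there past the threshold and 8 rose there past it, namely STC2, SLC3A2, AARS, CYGB, G0S2, TPBG, CLIC4 and HRSP12, of which the last 5, like IFITM2 below, were named after their values were seen. Of the 74 genes, 47 had lower means at 48 h in degron (−) cells, where 50.7% of all genes did. Their median log2 fold change was −0.30 in degron (++) and −0.036 in degron (−) cells. Of the 93 genes that rose, 87 were tested in degron (−) cells, 21 rose there, 2 fell there (IFITM2 and SNORD89, the latter listed at 0 at 48 h), and 63 had higher means at 48 h, where 49.3% of all genes did. Their median was 0.39 in degron (++) and 0.084 in degron (−) cells. The first median of each pair was fixed by the choice of the genes.

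The difference between the populations was tested as an interaction of time and population over 12815 genes, of which 432 (3.37%) passed the threshold, 364 (2.84%) with the lower and 68 (0.531%) with the higher log2 fold change in degron (++) cells. STC2 went opposite ways, with a log2 fold change of −0.56 in degron (++) and 0.26 in degron (−) cells (interaction adjusted p = 0.000468). In degron (−) cells it had 25.7 and 26.1 FPKM at 30 h and 30.6 and 31.95 FPKM at 48 h. The difference passed the threshold for PSAT1 (−0.64 against −0.098, adjusted p = 0.0126), ASNS (−0.64 against −0.18, adjusted p = 0.0209) and GARS (−0.44 against −0.055, adjusted p = 0.00673). It missed the threshold for PHGDH (adjusted p = 0.0569), GPT2 (adjusted p = 0.0625) and PCK2 (adjusted p = 0.116). Of the ATF4 list, 17 genes were tested in degron (−) cells, 6 of which rose and none fell, with a median of 0.12. Of all genes tested there, 6.53% rose and 1.42% fell. Genes of other kinds rose in the degron (−) libraries too, among them 23 of 31 tested epithelial junction and polarity genes. At 30 h STC2 and PSAT1 had means of 96.4 and 280 FPKM in degron (++) cells, against 25.9 and 76.2 FPKM in degron (−) cells. The part of such shifts and levels in these differences was not tested.

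Of the hypoxia list, the difference passed the threshold for LDHA (−0.35 against −0.01, adjusted p = 0.00788), P4HA1 (−0.42 against −0.012, adjusted p = 0.0114) and NDRG1 (−0.70 against −0.079, adjusted p = 0.0267), but not for VEGFA (adjusted p = 0.158). Among the rises it passed for TM7SF2 (0.96 against 0.034, adjusted p = 0.0139), RAB26 (0.82 against 0.14, adjusted p = 0.0239) and CD24 (0.32 against −0.036, adjusted p = 0.0262). It did not pass for SREBF1, SCD and INSIG1, whose adjusted p-values were 0.525, 0.25 and 0.361. Of the sterol and fatty acid list, 14 of 30 genes rose in degron (−) cells, where 6.53% of all genes did. The median of the list there was 0.23. HIST1H1C, IFIT2, NEAT1, LUM and MUC1 also rose in degron (−) cells past the threshold, and their differences between the populations did not pass it.

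**Figure D5:**
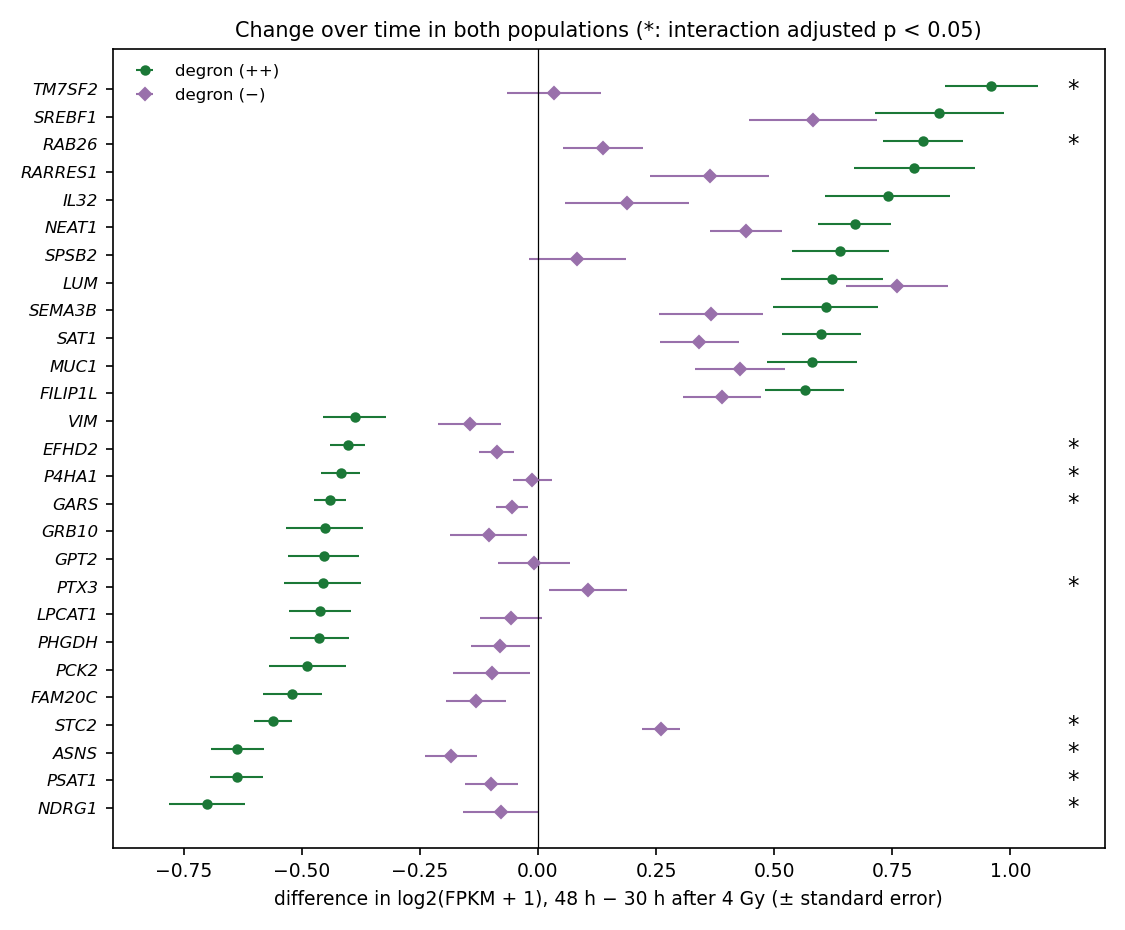
Difference in log2(FPKM + 1) between 48 h and 30 h after 4 Gy (x axis) in degron (++) cells (green) and degron (−) cells (purple) for 27 of the 30 largest rises and falls, those tested in both populations; bars are standard errors of the fit over all 12 libraries. Stars mark the 10 genes with an interaction adjusted p under 0.05, among them PSAT1, ASNS, STC2 and NDRG1. For every fall the purple point lies nearer to 0 than the green one or on its other side. The genes were chosen by their change in degron (++) cells, which favours this order.

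Other levels in the degron (−) libraries also moved between the time points. CDKN2A, at similar levels in all degron (++) libraries, was higher at 48 h than at 30 h in degron (−) libraries, as given above. In degron (−) cells 23 of 31 tested epithelial junction and polarity genes rose, where 6.53% of all genes did. Their median log2 fold change was 0.62, against 0.037 in degron (++) cells. The summed level of 112 genes that were at least 10 FPKM in unirradiated degron (−) libraries and at most 0.5 FPKM in unirradiated degron (++) libraries was 3900 and 3984 FPKM at 30 h and 3487 and 3636 FPKM at 48 h in degron (−) cells. In the degron (++) libraries the same sum was 12.6 and 12.8 FPKM at 30 h and 13.3 and 14.1 FPKM at 48 h. The part of these shifts in the interaction was not tested.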

How the data were processed

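RNA of 12 libraries of cells labelled PANC-1 was analysed, 2 in each of 6 groups by dose, time and population, grouped by their titles. Per the labels, total RNA was made into stranded mRNA libraries. The authors deposited FPKM per gene symbol and library, made, per the submitters' processing notes, with TopHat2 2.1.1, Bowtie2 2.2.8, SAMtools 0.1.18 and Cuffdiff 2.2.1 on hg19. The annotation is not given in the sources used here. FPKM hold no counts, so no interval for counting error is given, and a sample rich in a few short genes leaves a smaller share to the others.

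From the FPKM of 23284 gene symbols, log2(FPKM + 1) was tested with limma 3.58.1 in R 4.3.3 (lmFit on 6 group means over all 12 libraries, contrasts, eBayes with trend) on the genes that reached FPKM 1 in 2 or more of the libraries compared. The threshold was a Benjamini-Hochberg adjusted p of 0.05 over all genes tested, and p-values are two-sided. The fits were tested on simulated data. The members and gene lists were chosen with earlier results of these data known. Named genes are the 15 rises and 15 falls with the largest log2 fold change that passed it without overlap and with a mean of at least 5 FPKM at the higher time point, up to 4 small RNA genes, up to 4 members past the threshold per list or, with none past it, up to 2 of the most abundant, and the 5 largest interactions in each direction with up to 4 small RNA genes by adjusted p; others are said to be named after their values were seen. A gene that the rule selects is not reported here. Promoter sequences are RefSeq's for GRCh38.p14, matched by symbol or synonym; no coordinate of hg19 was used. Python 3.11.15 with pandas 2.3.3, numpy 2.4.6 and matplotlib 3.10.9 was used for the other steps.

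The alternatives were a pseudocount of 0.1, the filter at FPKM 5 or left out, quantile normalization, rescaling to a common sum (TPM) with and without small RNA genes, no trend in eBayes, a replicate block, fits on fewer libraries, and leaving out each library in turn.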

Additional observations from a re-analysis of the deposited data

Results flagged for a closer look

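The change from 30 h to 48 h after 4 Gy differed between degron (++) and degron (−) cells, by the interaction of time and population in limma, for 432 of 12815 genes, of which 364 had the lower and 68 the higher log2 fold change in degron (++) cells. At an unadjusted p under 0.05 the number was 2318. Of the 364 genes, 305 had risen in degron (−) cells past the threshold, as 6.53% of all genes did. In degron (++) cells 328 of the 364 had not passed it, where 1.43% of all genes did. Choosing genes by this difference favours a rise in degron (−) cells, so these counts are no separate result. The part that the shifts in degron (−) libraries described above have in these differences was not tested.

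With small RNA genes left out, the 5 largest negative differences between the log2 fold changes, degron (++) minus degron (−), belonged to LY6D (−1.28, adjusted p = 0.00223), LETM2 (−1.22, adjusted p = 0.00769), S100A9 (−1.18, adjusted p = 0.00872), LAMA3 (−1.01, adjusted p = 0.00118) and RGS4 (−1.01, adjusted p = 0.0139). LY6D, a surface protein of squamous epithelium, had 26.5 and 29.6 FPKM at 30 h and 26.1 and 26.8 FPKM at 48 h in degron (++) cells and 1.99 and 1.68 FPKM at 30 h and 5.26 and 5.802 FPKM at 48 h in degron (−) cells. LAMA3, a chain of laminin-332, had 154 and 153 FPKM at 30 h and 137 and 137 FPKM at 48 h in degron (++) cells and 21.1 and 23.3 FPKM at 30 h and 38.8 and 42.8 FPKM at 48 h in degron (−) cells. All 5 genes rose in degron (−) cells, which their choice by this difference favours, and did not pass the threshold in degron (++) cells. At 4 Gy they were higher in every degron (++) library than in every degron (−) library.

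With small RNA genes left out, the 5 largest positive differences belonged to FXYD3 (1.08, adjusted p = 0.0342), PRRX2 (0.96, adjusted p = 0.0303), TM7SF2 (0.93, adjusted p = 0.0139), VMAC (0.86, adjusted p = 0.0294) and PALM3 (0.73, adjusted p = 0.0306). FXYD3 had 1.74 and 0.948 FPKM at 30 h and 3.44 and 3.15 FPKM at 48 h in degron (++) cells and 0.068 and 0.214 FPKM at 30 h in degron (−) cells, where it was listed at 0 in both 48 h libraries. PRRX2 and VMAC stayed under or near 1 FPKM in degron (++) cells.

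The difference passed the threshold for 7 small RNA genes, of which the 4 with the lowest adjusted p are SNORD83B (−8.91), SNORD89 (11.97), SNORA45 (−4.68) and SNORD88B (−7.59). The others, named after their values were seen, were SNORD35A, SNORD83A and SNORA7B. These values depend on the pseudocount and are no folds, since each of these 4 genes was listed at 0 in both libraries of 1 or 2 of the irradiated groups. SNORD89 was listed at 0 at 30 h in degron (++) cells and at 0 at 48 h in degron (−) cells, where it had 134 and 47.2 FPKM at 30 h. SNORD83B, SNORA45 and SNORD88B were listed at 0 at 30 h in degron (−) cells and above 0 in the other irradiated libraries.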

How the results depend on the processing

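The count of 167 genes stayed between 133 and 191 with another pseudocount, filter, quantile normalization or eBayes without trend. It was 52 after TPM rescaling, 256 after TPM rescaling without small RNA genes, 74 in a fit of the 6 degron (++) libraries, 35 in a fit of the 4 libraries and 21 to 42 without 1 of them (37 and 21 without replicate 1 and 2 at 30 h, 42 and 21 without replicate 1 and 2 at 48 h). The replicate number as a block gave 105 genes. Libraries of the same number did not deviate together (r = −0.0297 across genes between 30 h and 48 h), and nothing in the labels pairs them. The count of 432 interactions was 233 after TPM rescaling, 169 in a fit of the 8 irradiated libraries, 297 with the replicate block and 82 to 385 without 1 library (over 211 in a single case, without degron (−) 48 h replicate 1). The count of 970 in degron (−) cells was 632 after TPM rescaling, which gave 83.2% rises, and quantile normalization gave 69.1%, against 82.2%. The causes were not tested. The named genes past the threshold kept their direction under every alternative that gave a value. Directions turned only for genes that had not passed: IER3 (−0.023 to 0.13 without 1 library), F3 (0.024 with quantile normalization, 0.0012 with TPM without small RNA genes), PSMB7 (−4.5e-05 with quantile normalization, −0.013 with TPM, and −0.023 to 0.029 without 1 library, with −0.0078 without 30 h replicate 2) and HSP90B1 (−0.037 to 0.10 without 1 library, with −0.0076 without 30 h replicate 1). The unknown depth of the libraries and 2 libraries a group limit what could be detected.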
